A study of Sus scrofa with 14 samples.

Results

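LEF1, WNT2B and CTNNB1, 3 genes of the Wnt pathway, were followed across 14 arrays of pig meniscus, the fibrocartilage pad of the knee. They are 3 of the 2389 genes that could be named on the array, and every non-control probe whose RefSeq accession belongs to a pig transcript of these genes was kept: 9 probes of 43603, of which LEF1 has 3, WNT2B 1 and CTNNB1 5. All 9 passed the filter on dim probes. The osteoarthritis group (OA) was 7 male Wuzhishan pigs sampled 24 weeks after an operation on the anterior cruciate ligament, and the sham group was 7 male Wuzhishan pigs sampled 24 weeks after a sham operation. The animals of both groups were healthy adults of 6 to 7 months and 15 to 18 kg, divided at random, with 1 array an animal. The labels do not say what the ligament surgery consisted of, and no genotype or drug is given. LEF1 was chosen by its OA minus sham values, because a probe was higher in OA and its probes disagreed, so its OA minus sham values are a description with no test.

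Wnt proteins are secreted ligands that bind Frizzled and LRP receptors. Without a ligand, a cytoplasmic complex that includes the kinase GSK3B marks beta-catenin, the product of CTNNB1, for destruction. With a ligand, beta-catenin accumulates, enters the nucleus and joins DNA-binding factors of the TCF/LEF family, of which LEF1 is a member, to switch on target genes. In mouse and human cartilage the pathway is known to affect chondrocyte maturation and matrix turnover, and mouse and human T cells are known to express LEF1.

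Values are log2 of the processed signal minus the 75th percentile of the array, called the scaled level below, and differences are OA minus sham. The OA arrays were dimmer. The 75th percentile of the signal averaged 274 ± 125 on OA arrays (range 156 to 492) and 539 ± 82.6 on sham arrays (range 418 to 622; SD, n = 7 each; two-sided exact permutation test, adjusted p = 0.0035). Probes rated well above background made up 67.9% to 89.3% of each OA array and 89.7% to 95.2% of each sham array (exact permutation adjusted p = 0.0012). Slides are not labelled, and arrays that share a scan start in the file headers were taken as 1 slide. No slide so inferred held both groups: OA 1 was on slide 3, OA 2 to 5 on slide 4 and OA 6 and 7 on slide 5, whereas sham 1 to 4 were on slide 1 and sham 5 to 7 on slide 2. No scan day held both groups either, so slide, scan day and group cannot be told apart in any difference given here. Over all 38818 tested probes, 2.89% were called higher and 0.848% lower in OA (3.73% in all) by limma at an adjusted p of 0.05. Without scaling between arrays the median difference over all probes was -1.12, against -0.05 with it. In whole tissue, fewer cells that make a transcript and less transcript per cell cannot be told apart. ACAN, DCN, SOX9 and TNMD, the 4 named of 15 listed markers of meniscal cells and matrix, were well above background on all 14 arrays, and 0 of the 4 passed the test.

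WNT2B, the ligand among the 3 genes, gave no difference larger than the spread between animals. Its probe A_72_P265702 had scaled levels from -2.90 through a median of -2.09 to -1.79 in OA, and from -3.58 through a median of -2.80 to -1.36 in sham. The groups overlapped, and sham 5 (-1.36) lay above all 7 OA arrays. The probe was dim but well above background on all 14 arrays, at signals of 31.6 to 115 in OA and 35.0 to 229 in sham. The difference was 0.40 ± 0.29 (SE, n = 7 per group; 95% interval -0.21 to 1.00; limma adjusted p = 0.47). Without sham 5 the difference was 0.62 (adjusted p = 0.17), without sham 2 it was 0.25 and without the OA arrays of slide 4 it was 0.21. With array weights it was 0.076. With normexp background correction it passed the test at 0.56 (adjusted p = 0.023), in a fit where the median over all probes was 0.34, and without scaling it turned to -0.68.

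CTNNB1, which encodes beta-catenin, was well above background on every array, and none of its 5 probes passed the test. The brightest probe, A_72_P575864, had scaled levels from 5.37 through a median of 5.86 to 6.32 in OA, and from 5.09 through a median of 5.76 to 5.90 in sham. The groups overlapped along most of their range. Its signals before scaling were 9345 to 24517 in OA and 14262 to 34892 in sham. Its difference was 0.21 ± 0.19 (SE, n = 7 per group; 95% interval -0.20 to 0.62; limma adjusted p = 0.58). The second probe, A_72_P035751, had scaled levels of 5.47 to 6.31 in OA and 4.76 to 5.90 in sham. Its difference was 0.36 ± 0.22 (95% interval -0.11 to 0.83; limma adjusted p = 0.39).

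The other 3 CTNNB1 probes did not pass either. A_72_P586606 had a difference of 0.24 ± 0.21 (limma adjusted p = 0.57), A_72_P569999 of 0.08 ± 0.18 and A_72_P538553 of 0.08 ± 0.18 (adjusted p = 0.85). All 5 differences were positive after scaling, where the 5 intervals reached from -0.31 to 0.83 at most. Without scaling all 5 were negative, from -0.99 to -0.71. There 4 of the 5 passed as lower (limma adjusted p = 0.0080 to 0.025, and 0.056 for A_72_P035751). In that unscaled fit 31461 of the 38818 tested probes passed as lower, with a median difference of -1.12. At that share, 4 of 5 is no result about CTNNB1. The dimmest probe, A_72_P538553, also turned to -0.021 with normexp background correction.

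With A_72_P575864, CTNNB1 levels stood apart by slide within each group. The 4 OA arrays of slide 4 read 5.86 to 6.32 with A_72_P575864, while OA 1 on slide 3 read 5.37 and the 2 OA arrays of slide 5 read 5.44 and 5.64. The 4 sham arrays of slide 1 read 5.09 to 5.76, and the 3 of slide 2 read 5.80 to 5.90. A_72_P586606 stood apart too: slide 4 read 4.86 to 5.57, slide 3 4.83 and slide 5 4.71 and 4.74. Its sham arrays read 4.12 to 5.02 on slide 1 and 5.04 to 5.16 on slide 2. With A_72_P569999 slide 4 (5.28 to 5.68) and sham slide 2 (5.47 to 5.59) lay above the other slides of their group. With A_72_P538553 slide 4 (2.30 to 2.73) did so, while sham slide 1 read 1.73 to 2.58, around slide 2 at 2.28 to 2.42. A_72_P035751 overlapped in both groups: slide 4 read 5.47 to 6.31, around slide 5 at 5.58 and 5.64. Sham slide 1 read 4.76 to 5.90 with it, around slide 2 at 5.73 to 5.84. Without the 4 OA arrays of slide 4, the difference for A_72_P575864 was -0.11 (limma adjusted p = 0.92). The same omission gave -0.20 for A_72_P538553 and -0.090 for A_72_P569999, while A_72_P035751 (0.19) and A_72_P586606 (0.029) stayed positive.

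**Figure D1:**
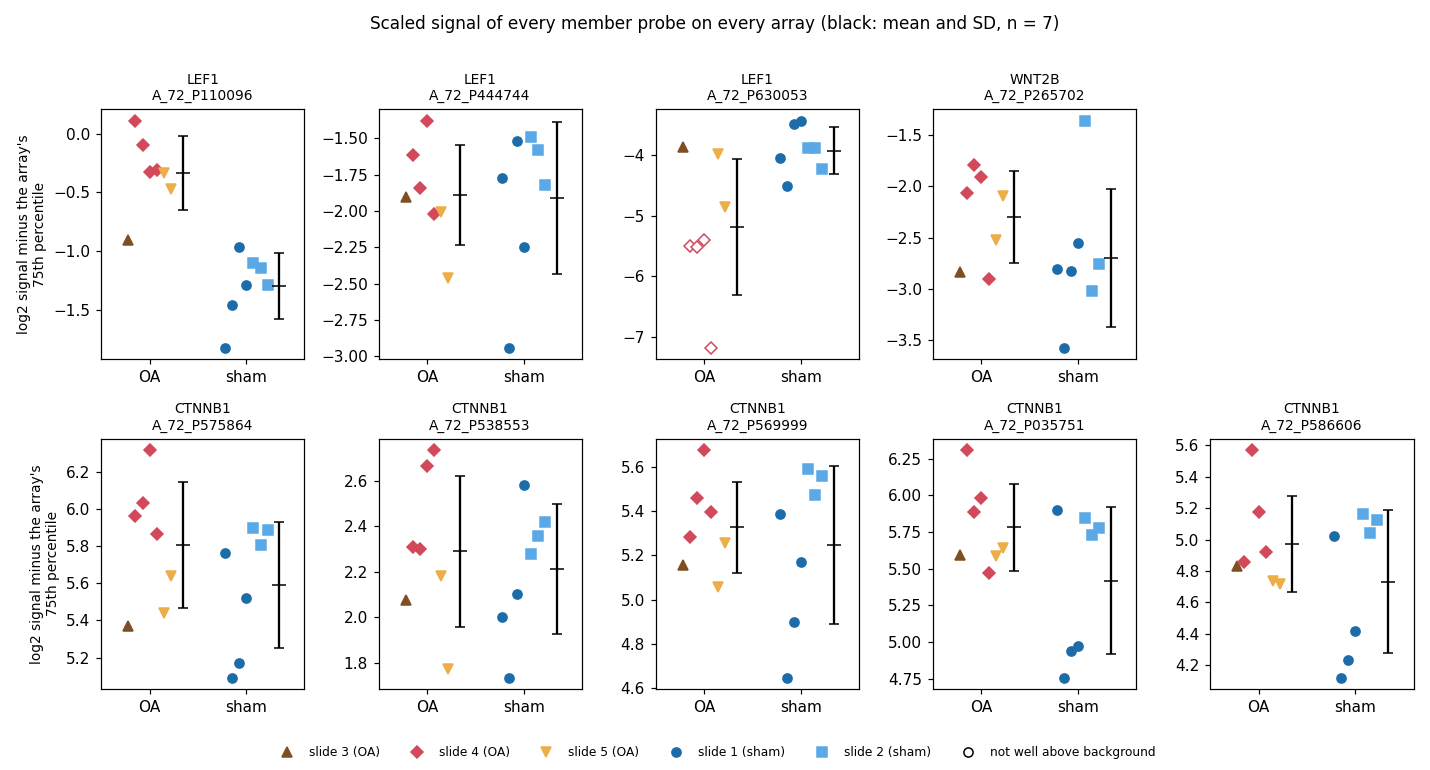
Scaled level (log2 of the signal minus the 75th percentile of the array, y axis) of each of the 9 probes, with OA left of sham, 1 point per animal by slide and the mean with SD (n = 7) beside each group. LEF1 A_72_P110096 has no overlap between groups, with OA from -0.91 to 0.11 and sham from -1.83 to -0.97, whereas the other 8 probes overlap.

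LEF1, the DNA-binding factor that carries beta-catenin to target genes, read differently with each of its 3 probes. The brightest, A_72_P110096, had scaled levels of -0.91, 0.11, -0.10, -0.32, -0.31, -0.34 and -0.48 on OA 1 to 7. On sham 1 to 7 it had -1.83, -1.46, -0.97, -1.29, -1.11, -1.15 and -1.29. The groups did not overlap, and OA 1 (-0.91) and sham 3 (-0.97) were the nearest arrays of the 2 groups. The mean was -0.33 ± 0.32 in OA and -1.30 ± 0.28 in sham (SD, n = 7 each), a difference of 0.96 ± 0.18 (SE) or 1.95-fold. Across all tested probes 671 (1.73%) had groups that did not overlap. This contrast chose the gene, so nothing is read from that share.

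The second probe, A_72_P444744, had scaled levels of -1.91, -1.61, -1.84, -1.38, -2.02, -2.01 and -2.46 on OA 1 to 7. On sham 1 to 7 it had -1.77, -2.94, -1.52, -2.25, -1.49, -1.58 and -1.82. The groups overlapped along most of the OA range, and sham 2 was the lowest array. The mean was -1.89 ± 0.34 in OA and -1.91 ± 0.52 in sham (SD, n = 7 each), a difference of 0.02 ± 0.23 (SE). Without sham 2 the difference was -0.15, and without scaling it was -1.05.

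The third probe, A_72_P630053, was the dimmest and ran the other way. Its scaled levels were -3.86, -5.51, -5.51, -5.40, -7.19, -3.97 and -4.85 on OA 1 to 7, against -4.04, -4.50, -3.48, -3.43, -3.89, -3.88 and -4.22 on sham 1 to 7. It was well above background on 3 of 7 OA arrays (OA 1, OA 6 and OA 7) and on 7 of 7 sham arrays, and the 4 OA arrays on which it was not were those of slide 4. The mean was -5.18 ± 1.13 in OA and -3.92 ± 0.38 in sham (SD, n = 7 each), a difference of -1.26 ± 0.40 (SE). Because 4 OA values lie at the background, the size of that difference is not known. Without the OA arrays of slide 4 it was -0.31 ± 0.28, and with normexp background correction it turned to 0.47, in a fit with a median of 0.34 over all probes.

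The signals before scaling show what the scaling does to LEF1. With A_72_P110096 the signals were 120, 219, 178, 125, 202, 320 and 354 on OA 1 to 7, and 168, 152, 240, 249, 272, 281 and 194 on sham 1 to 7. These overlapped, and their geometric means were 201 in OA and 217 in sham, with an unscaled log2 difference of -0.11. OA 6 and OA 7, the brightest OA arrays with 75th percentiles of 404 and 492, gave 320 and 354, above the highest sham signal of 281. By rank within the array, which needs no scaling, the probe stood above 67.0% to 75.7% of the probes in OA (median 72.7%) and above 59.6% to 66.7% in sham (median 64.5%). The ranks did not overlap, although OA 1 at 67.0% and sham 3 at 66.7% nearly met. The scaling also sets a probe against the other probes of its array, so rank and scaled level are readings of the same values. This is also the contrast that chose the gene, so the ranks are not support for it. A_72_P444744 overlapped in rank, at 49.9% to 63.6% in OA and 42.6% to 62.1% in sham.

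**Figure D2:**
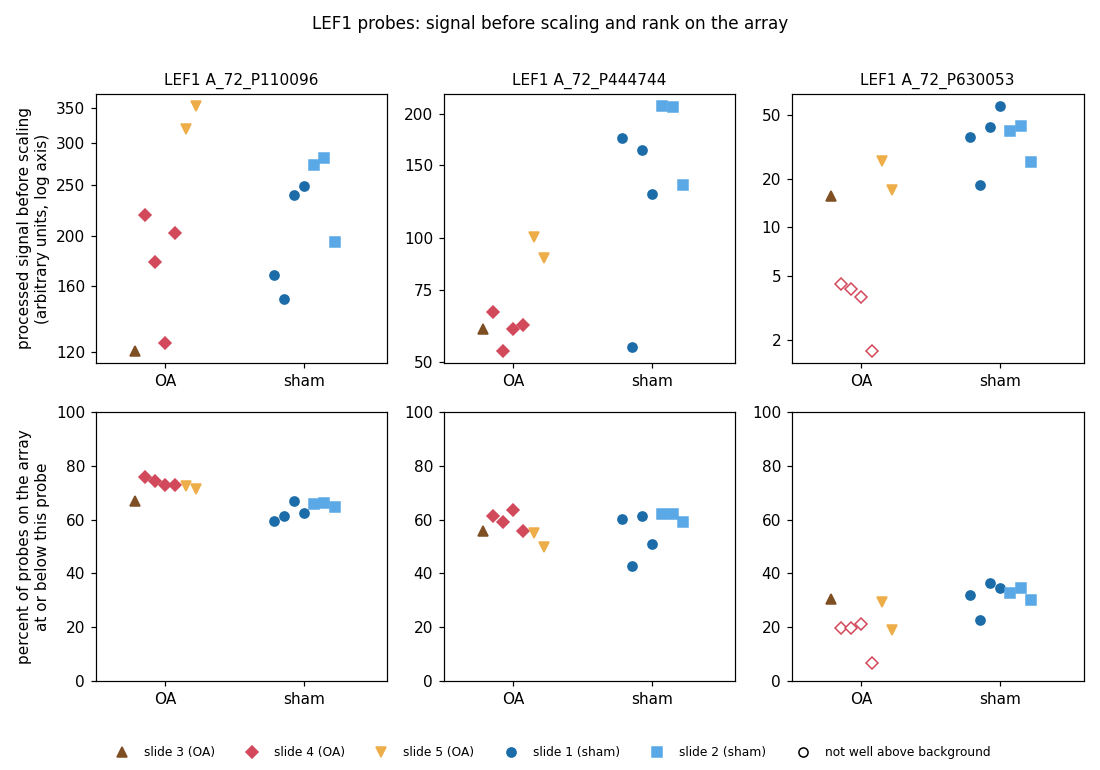
Processed signal before scaling (top row, arbitrary units, log axis) and percent of probes on the array at or below the probe (bottom row) for the 3 LEF1 probes, OA left of sham, 1 point per animal by slide, open where not well above background. With A_72_P110096 the signals overlap, at 120 to 354 in OA and 152 to 281 in sham, while the ranks do not, at 67.0% to 75.7% in OA and 59.6% to 66.7% in sham.

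The ratio of 2 LEF1 probes on the same array does not depend on the scaling between arrays, and shows only whether they changed unequally. The log2 ratio of A_72_P110096 over A_72_P444744 averaged 1.56 ± 0.38 in OA (1.00 to 1.99) and 0.61 ± 0.49 in sham (-0.06 to 1.48; SD, n = 7 each). The groups overlapped through sham 2 (1.48), OA 1 (1.00) and OA 4 (1.05). The log2 ratio of A_72_P110096 over A_72_P630053 was measured on 3 OA arrays, at 2.95 on OA 1, 3.63 on OA 6 and 4.37 on OA 7, and averaged 2.62 ± 0.35 in sham (2.14 to 3.04; SD, n = 7). OA 1 lay below sham 2 (3.04). On the 4 OA arrays of slide 4 A_72_P630053 was at the background, so the size and order of their ratios are not known and no OA mean is given.

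**Figure D3:**
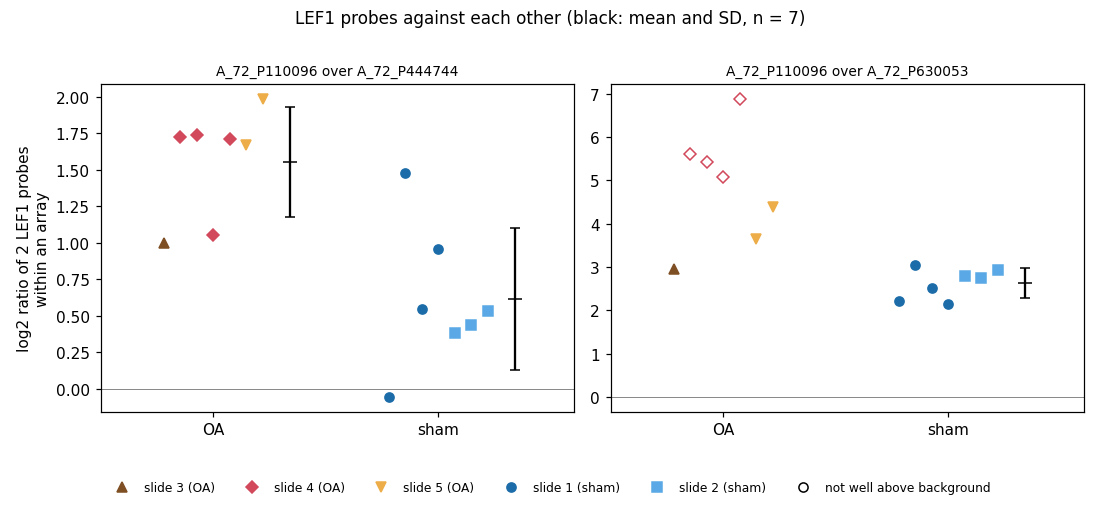
Log2 ratio of A_72_P110096 over each of the other 2 LEF1 probes on the same array (y axis), OA left of sham, 1 point per animal by slide, with mean and SD (n = 7), open and with no mean where a probe is not well above background. The mean ratio over A_72_P444744 is 1.56 in OA and 0.61 in sham. The ratio over A_72_P630053 is 2.95 to 4.37 on the 3 OA arrays that measured it and 2.14 to 3.04 in sham.

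Disagreement of sign between probes was common on this array. Of 256 named genes with 3 tested probes, 159 (62.1%) had differences of both signs. The median range between probes of a gene was 0.48 on the log2 scale. Probes without a true difference can take either sign, so this share is no measure of how often probes truly disagree. LEF1 was picked for its disagreement, and its range depends on A_72_P630053, so neither is ranked here. The 5 CTNNB1 probes ranged over 0.28.

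Whether probes of a gene vary together between animals of the same group was tested apart from the contrast that chose LEF1. Over the 7 OA arrays, A_72_P444744 and A_72_P110096 had a Pearson r of 0.35 and a Spearman rho of 0.46 (two-sided exact permutation p = 0.44 and 0.30; adjusted p = 0.51 and 0.36 over 24 pairs). Without the 2 arrays farthest from the median of A_72_P444744, r was 0.55, and without OA 2 alone it was 0.18. Over the 7 sham arrays these probes had an r of 0.40 and a rho of 0.75 (exact permutation p = 0.35 and 0.066; adjusted p = 0.46 and 0.16), and r was 0.72 without the 2 farthest arrays. Leaving out each sham array in turn gave an r of 0.29 to 0.90 for this pair. Only the highest, without sham 1, had an exact permutation adjusted p under 0.05 (0.029). The other sham pairs had an r of 0.49 each, with rho of 0.36 and 0.46 (exact permutation p = 0.26 for both r values, and 0.44 and 0.30 for rho; adjusted p = 0.40 for both r values, and 0.51 and 0.36 for rho). Without the 2 farthest arrays their r was 0.80 and 0.54. The r of 0.49 between A_72_P444744 and A_72_P630053 turned to -0.25 without sham 2. OA pairs with A_72_P630053 were not tested, since it was at the background on 4 arrays.

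Among the 10 pairs of CTNNB1 probes, r ran from 0.14 to 0.93 in OA (median 0.63) and from 0.29 to 0.99 in sham (median 0.93). Of these pairs, 1 in OA and 6 in sham had an exact permutation adjusted p under 0.05, and by rho 1 in OA and 3 in sham did. Without the 2 farthest arrays r ran from 0.07 to 0.90 in OA and from -0.43 to 0.99 in sham. A slide holds too few arrays for values within it, so the part of the slides in these correlations was not tested.

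The difference for LEF1 A_72_P110096 under other settings is given as a description of the value that chose the gene, not as support for it. Leaving out each array in turn gave 0.88 to 1.06, and the fit without the OA arrays of slide 4 gave 0.73. With the slide as a random block it was 0.90 ± 0.23 (SE), and with the brightness of the array as a covariate 0.83 ± 0.30. It was negative without scaling (-0.11). The mean of the 3 LEF1 probes gave -0.093, which is not a reading of A_72_P110096 alone. That mean takes in A_72_P630053 (-1.26), which was at the background on the OA arrays of slide 4, so its size is not known either.

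**Figure D4:**
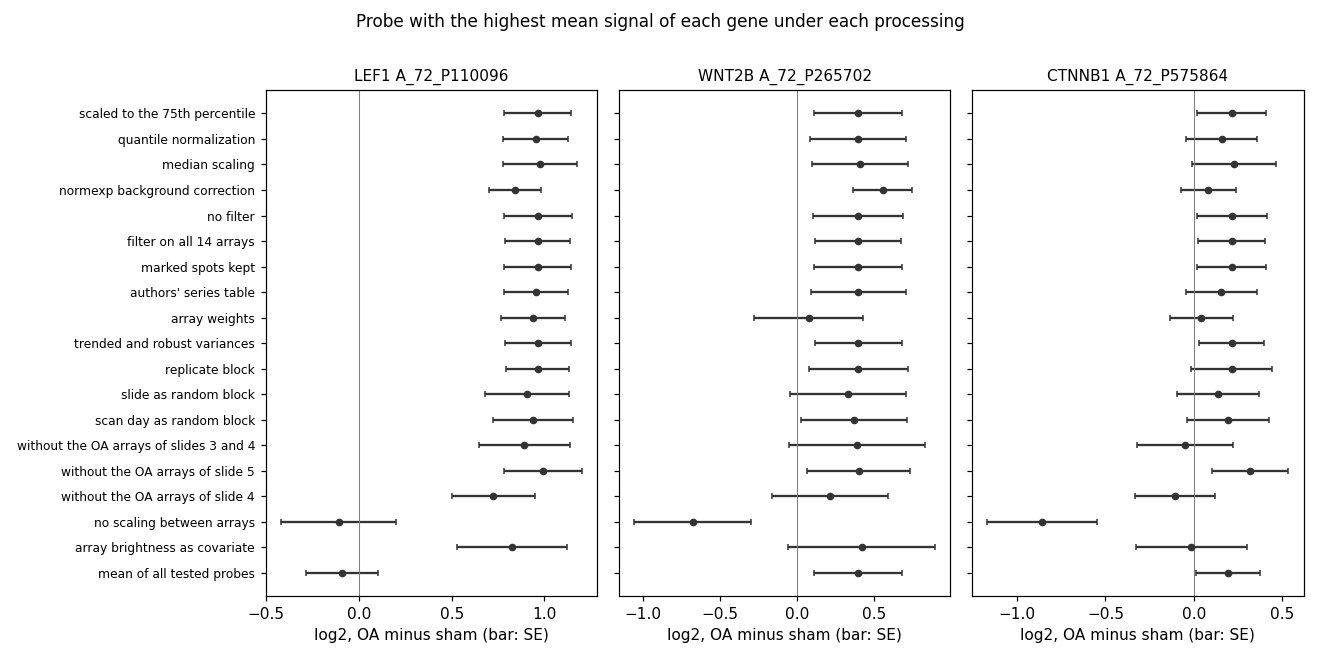
OA minus sham difference (log2, x axis) of the brightest LEF1, WNT2B and CTNNB1 probes under each setting, down the page, with SE bars. LEF1 lies between 0.73 and 0.99 except without scaling between arrays (-0.11) and as the mean of its 3 probes (-0.093). That mean takes in A_72_P630053, which was at the background on the OA arrays of slide 4. WNT2B is negative only without scaling (-0.68), and CTNNB1 is negative in 4 settings, from -0.86 without scaling to -0.015 with brightness as a covariate.

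T cells are a known source of LEF1 in mouse and human, and their markers were read beside it. Of 21 listed T cell and NK cell markers, 11 were named and tested, and 0 passed in either direction. By the brightest probe 3.23% of the 2258 named genes tested passed, a share at which 0 of 11 is no result about these cells. Of the 11 markers, 5 had positive and 6 negative differences, with a median of -0.0017, against 0.0034 over the named genes. Their summed scaled signal ran from 2.81 to 10.5 in OA and from 2.83 to 16.1 in sham. GZMB, a granule protease and the brightest of them, had a difference of -0.26 ± 0.43 (SE; limma adjusted p = 0.78), and the 11 ran from -0.39 ± 0.33 (CD3D) to 0.56 ± 0.21 (IL7R, limma adjusted p = 0.16). The tested chains of the T cell receptor complex were named as defining markers after their values were seen. They were CD3E (-0.085), CD247 (-0.19), CD3G (-0.38) and CD3D (-0.39), and none passed (limma adjusted p = 0.55 to 0.85). CD3E and CD247 were well above background on all 14 arrays. CD3G was so on 6 of 7 OA arrays and CD3D on 4 of 7, and both on 7 of 7 sham arrays.

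Among markers of other tissues, the muscle genes TNNI1 (0.71 ± 0.18, adjusted p = 0.041) and MYOD1 (1.44 ± 0.24, adjusted p = 0.0070) were higher in OA by limma, 2 of 13 tested. The 13 muscle markers had 7 positive and 6 negative differences, and their summed signal was 13.6 to 27.3 in OA and 15.6 to 44.5 in sham. The fat hormone LEP was higher (0.74 ± 0.16, limma adjusted p = 0.021), 1 of 6 tested adipocyte markers, with sums of 6.23 to 33.7 in OA and 4.97 to 20.7 in sham. Of these 6 adipocyte markers 4 had positive differences and 2 negative ones, ADIPOQ (-0.18) and CIDEC (-0.34). EPCAM of epithelium (0.50 ± 0.13, limma adjusted p = 0.043) and KLF1 of red cell precursors (1.18 ± 0.32, adjusted p = 0.047) were also higher, 1 of 3 and 1 of 2 tested. By the brightest probe, 67 of the 2258 named genes tested were called higher and 6 lower. Counts in marker sets this small are not read as results about a cell type. None of the tested macrophage, B cell, endothelial, smooth muscle, synovial lining or osteoblast markers passed. The brightest of these by type, CD163, CD79A, CDH5, ACTA2, CLIC5 and SPP1, had differences between -0.31 and 0.49. The other 2 endothelial markers, PECAM1 (-0.89 ± 0.42 SE, limma adjusted p = 0.26) and CLDN5 (-0.30), had the opposite sign to CDH5. The brightest muscle, fat and epithelial markers, ACTA1 (-0.38), FABP4 (0.74 ± 0.63 SE) and KRT8 (0.11), and DCN (0.012) of the matrix did not pass either. The part of these cells in the LEF1 difference was not tested.

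The rest of the pathway was read from a list of 168 genes, of which 30 were named on the array, all tested, with 63 probes. None of the 21 listed receptors and none of the 3 genes of ligand release was among the 30. Beside the 3 LEF1 probes, 1 of the other 60 probes, that of PPARD, was called higher and 0 were called lower by limma. Over all 38818 tested probes 2.89% were called higher and 0.848% lower, shares at which these counts are no result about the list. Of the 60 probes, 8 had an unadjusted limma p under 0.05, against 7593 of all tested probes. The 60 probes had 34 positive and 26 negative differences with a median of 0.07, against -0.05 over all tested probes. By the brightest probe of each gene, 0 of the 29 genes other than LEF1 were called, against 3.23% of the 2258 named genes tested, a share at which 0 of 29 is no result about these genes. They had a median difference of 0.12, against 0.0034 over the named genes.

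PPARD, a nuclear receptor described as a Wnt target in human colon cells, was called higher with its dimmer probe. A_72_P165296 had scaled levels from -3.41 through a median of -2.88 to -2.01 in OA, and from -3.94 through a median of -3.68 to -3.13 in sham. The groups overlapped. The difference was 0.78 ± 0.20 (SE, n = 7 per group; limma adjusted p = 0.040). Its brighter probe, A_72_P443751, gave -0.11 ± 0.22 (limma adjusted p = 0.82). The call held in 12 of 32 fits. Leaving out a single array kept it without OA 1 (adjusted p = 0.015) or without sham 4 (adjusted p = 0.034), and without any other array it missed the threshold (adjusted p = 0.053 to 0.087) at differences of 0.64 to 0.81. The slide as a random block gave 0.74 (adjusted p = 0.29), and without scaling the difference was -0.30.

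In the other roles 0 genes passed the test by their brightest probe, and the gene with the smallest p in each role is given here. GSK3B, the kinase of the destruction complex, had scaled levels of -1.46 to -0.36 in OA and -0.80 to -0.14 in sham with its brighter probe, which overlapped. Its 2 probes gave -0.46 ± 0.20 (95% interval -0.88 to -0.03; limma adjusted p = 0.22) and -0.40 ± 0.17 (adjusted p = 0.21). NDP, a ligand that signals through a Frizzled receptor, gave -0.44 ± 0.30 (limma adjusted p = 0.45) and was well above background on 5 of 7 OA arrays. With normexp background correction it turned to 0.56 (limma adjusted p = 0.018), in a fit where the median over all probes was 0.34 and 17635 of 38818 were called higher. SFRP4, a secreted Wnt antagonist, gave 0.60 ± 0.54 (limma adjusted p = 0.58) with a wide spread in OA, from 2.42 to 5.78, against 1.95 to 4.82 in sham. CDH5, an endothelial cadherin that binds beta-catenin, gave 0.49 ± 0.31 with its brighter probe and -0.42 ± 0.29 with the other (limma adjusted p = 0.41 and 0.46). NFATC2, a calcium-dependent transcription factor of the noncanonical branch, gave -0.59 ± 0.31 (limma adjusted p = 0.31) and was well above background on 5 of 7 OA arrays. In the same normexp fit NFATC2 gave 0.44 (limma adjusted p = 0.026). FGF9, a growth factor and Wnt target, gave -0.55 ± 0.31 (limma adjusted p = 0.35). The 13 measured target genes were 7 positive and 6 negative, from -0.80 to 0.42, and 4 of 4 genes of beta-catenin and its partners were positive, from 0.0062 to 0.49, with 0 called.

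**Figure D5:**
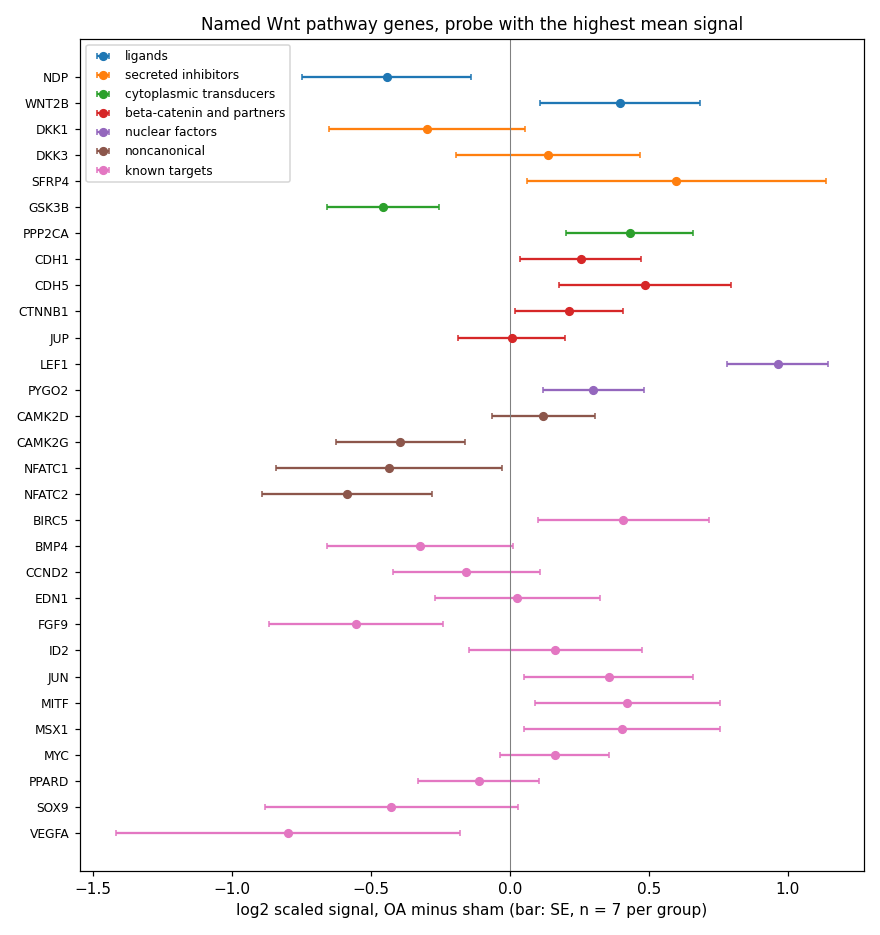
OA minus sham difference (log2, x axis, SE bars) of the brightest probe of each of the 30 measured Wnt list genes, down the page and coloured by role. LEF1 stands highest at 0.96, which is the contrast that chose it, and the other 29 lie between -0.80 (VEGFA) and 0.60 (SFRP4) with 0 called.

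Genes whose deviations from their group means were most like those of each gene, by Pearson r of the brightest probes over 14 arrays among 2257 genes, are given as a description. For LEF1 they were CYB561 (r = 0.89), an electron transporter of vesicle membranes, PPT2 (r = 0.81), a lysosomal thioesterase, and the uncharacterised LOC100302368 (r = 0.81). For WNT2B they were the protease inhibitor SLPI (r = 0.85), the sulfotransferase SULT1A3 (r = 0.83) and the potassium channel subunit KCNAB1 (r = 0.79). For CTNNB1 they were FAM204A (r = 0.90), the mucin MUC19 (r = 0.88) and the progesterone-binding membrane protein PGRMC1 (r = 0.86). Between the 3 genes themselves r was 0.42 for LEF1 and WNT2B, 0.29 for LEF1 and CTNNB1, and 0.59 for WNT2B and CTNNB1. All of these share arrays, slides and scaling.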

How the data were processed

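Total RNA was amplified and labelled with Cy3, per the labels' protocols. The deposited scanner files give the intensity of each spot, made with Agilent Feature Extraction 11.0.1.1, per the file headers, already background-subtracted and not normalized between arrays. The authors' deposited series table holds log2 values, used only as an alternative. The sources used here do not give how it was made. Each array had 45220 spots, 1417 of them control spots, and 0 were saturated.

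The processed signal was divided by the 75th percentile of each array's non-control probes and log2 transformed. In all, 82 spots marked non-uniform or population outlier were set missing, and spots of a probe were averaged. Probes had to be well above background on 7 or more of the 14 arrays to be tested (38818, with 4785 left out) with limma 3.58.1 in R 4.3.3 (lmFit, eBayes, two-sided, Benjamini-Hochberg over all tested probes, threshold 0.05). The procedure was tested on simulated data. The number of arrays limits the precision. Where a fit leaves out arrays, this is stated beside its value.

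Names came from RefSeq accessions matched to the RefSeq gene table of Sscrofa11.1: 5779 of 43603 probes carried an accession and 5461 matched. No coordinates are given, because the sources used here do not give the build behind the array. The brightest probe stood for a gene. Other named genes were any Wnt list gene past the threshold, the smallest p in each role, the 3 genes most like each member, and, of the markers, those past the threshold and the brightest of each type. Some genes this rule selects are left out. The members and lists were chosen with earlier results of these data known. Probe correlations and array measures used exact permutation tests enumerated in Python 3.11.15 with numpy 2.4.6, and scipy 1.17.1 gave the ranks for rho. Array measures had 3432 assignments and were adjusted over 2 measures.

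Alternatives were quantile and median scaling, normexp correction (offset 50, on median signals and backgrounds), the authors' table, no filter or a stricter filter requiring all 14 arrays, array weights, use of marked spots, trended with robust variances, replicate, slide and day blocks, slides or single arrays left out, and the mean of all probes. No scaling, array brightness as a covariate, and the CTNNB1 probe pairs were added after seeing the data.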

Additional observations from a re-analysis of the deposited data

Results flagged for a closer look

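Within the sham group, sham 4 had 95.2% of its probes well above background, against 89.7% to 91.1% on the other 6 sham arrays, a gap large for that group by Dixon's test. It was the only such array among 22 groups of 7 values checked (chance marks about 1 in 20).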

How the results depend on the processing

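Slide and group cannot be told apart, and the brightness of the arrays moved with both. Probes called higher in OA (1120) numbered 17635 with normexp correction, 2076 with no filter, 295 with the replicate block, 18 with a random block for slide and 143 with that for scan day, 156 without the OA arrays of slides 3 and 4, 233 without those of slide 4, 9 with no scaling and 3 with brightness as a covariate. Probes called lower (329) numbered 674 with quantile normalization, 784 with median scaling, 778 with normexp, 69 with the filter on all 14 arrays, 747 in the authors' table, 536 with array weights, 40 with the replicate block, 0 with a random block for slide and 5 with that for scan day, 39 without the OA arrays of slides 3 and 4, 1374 without those of slide 5, 3 without those of slide 4, 31461 with no scaling and 1 with brightness as a covariate. Leaving out each array in turn gave 598 to 1307 higher and 87 to 1403 lower.

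Wnt list probes called higher (2, of which 1 is the LEF1 value that chose the gene, so these counts do not bear on LEF1) numbered 12 with normexp, 1 with the replicate block and 0 with a random block for slide or for scan day, without the OA arrays of slide 4 or of slides 3 and 4, with no scaling and with brightness as a covariate, and 1 to 3 with an array left out. Those called lower (0) numbered 1 with quantile normalization, normexp, no filter or array weights. They numbered 2 in the authors' table and without the OA arrays of slide 5, 47 with no scaling, and 0 to 2 with an array left out. LEF1 A_72_P630053 was 1 of the 2 in both of those settings, and was also counted as lower without OA 1 and without OA 6. It was among the 12 counted as higher with normexp, and none of these counts is read as a test of LEF1. PPP2CA A_72_P676381, named after its values were seen, was the probe called lower with quantile normalization, normexp and array weights. CAMK2G A_72_P338448 was the one with no filter. The 6 tested PPP2CA probes had differences of both signs in the main fit, and the brightest, A_72_P592289, gave 0.43 ± 0.23 (SE; limma adjusted p = 0.31).

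LEF1 A_72_P110096 moved to -0.11 with no scaling, in a fit that keeps the brightness of each array. The mean of the 3 LEF1 probes was -0.093, and it takes in A_72_P630053, which was at the background on the OA arrays of slide 4. WNT2B passed the test with normexp (0.56) and reversed with no scaling (-0.68). CTNNB1 A_72_P575864 reversed without the OA arrays of slides 3 and 4 (-0.050), without those of slide 4 (-0.11), with no scaling (-0.86) and with brightness as a covariate (-0.015). A_72_P538553 reversed with normexp (-0.021), in these same omissions (-0.23 and -0.20), with no scaling (-0.99) and with brightness (-0.17), and A_72_P569999 with array weights (-0.10), in both omissions (-0.091 and -0.090) and with no scaling (-0.99). A_72_P035751 reversed with no scaling (-0.71), and A_72_P586606 with array weights (-0.0075), without slides 3 and 4 (-0.0051) and with no scaling (-0.83). Leaving out each array gave -4.1e-05 to 0.17 for A_72_P538553 and -0.020 to 0.14 for A_72_P569999, both lowest without sham 2. The sham correlation of LEF1 A_72_P444744 with A_72_P630053 was -0.11 with normexp and -0.25 to 0.82 with an array left out, and that with A_72_P110096 was 0.29 to 0.90. The causes were not tested. Same-numbered OA and sham arrays share only a number: their deviations correlated at -0.19 to 0.27, and 1 of 7 matched best with its own number. In a balanced design the replicate block moves the calls and not the differences.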
